A study of Equus caballus with 19 samples.

Results

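Cartilage oligomeric matrix protein (COMP) and the 4 thrombospondins THBS1, THBS2, THBS3 and THBS4 were followed through 19 RNA sequencing libraries of equine tenocytes. They were taken by gene name, and all 5 were found among the 29196 genes of each of 2 count tables. The cells were adult, wild-type primary tenocytes from the superficial digital flexor tendon of the horse, which stores and returns energy during locomotion, and each line came from 1 donor after death. Each line was grown in 10% fetal bovine serum and then held in a 3D gel of bovine type I collagen for 14 days. Lines 1 to 5 form the first batch, each with an untreated (control) gel and a gel given IL-1β at 1 nM, for 10 libraries. Lines 6 to 8 form the second batch, each with a control gel, a gel given the same dose of IL-1β, and a gel given that dose together with IL1Ra, the natural antagonist of the IL-1 receptor, at 100 ng/ml, for 9 libraries. The lines were numbered in the order of the samples. An isolated tenocyte population in reconstituted bovine collagen lacks the other cells and the native matrix of tendon, and IL1Ra alone was not analysed here.

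Thrombospondins are large secreted calcium-binding glycoproteins that share a conserved carboxy-terminal region. THBS1 and THBS2 form trimers, carry type 1 repeats and bind cell surface receptors such as CD36 and CD47, and THBS1 can activate latent TGF-β. COMP (also called thrombospondin 5), THBS3 and THBS4 form pentamers and lack the type 1 repeats. COMP binds collagens and is abundant in load-bearing tendon and in cartilage, where it takes part in collagen fibril assembly, and THBS4 is known from tendon and muscle matrix.

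Values are normalised counts, that is estimated reads per gene divided by normalisation factors that make libraries comparable. Each batch was assumed to be normalised on its own and was tested on its own. First-batch libraries summed to between 43393903 and 49197980 normalised counts, and second-batch libraries to between 24964149 and 34602014. Counts are not corrected for gene length, so levels were compared between libraries and not between genes. Tests were made with limma on log2-transformed normalised counts after adding 1, and p-values were adjusted by the Benjamini-Hochberg method across every gene tested. Differentially expressed (DE) genes had an adjusted p below 0.05 and changed by 1 or more on the log2 scale in either direction. Of the tenocyte markers, the transcription factors SCX and MKX were at 822 to 2110 and at 792 to 4654 normalised counts in the first-batch controls, while TNMD, a tendon membrane protein, was at 0 in each first-batch library and reached at most 1.00 in the second batch. The cultures are bulk samples, so fewer expressing cells and less RNA per cell cannot be told apart.

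In the first batch, IL-1β lowered the mRNA of all 5 genes. All 5 were DE and downregulated, where 7.9% of the 14719 genes tested were DE downwards and 12.8% were DE in either direction. Each was lower with IL-1β than in the matched control in 5 of 5 lines, a pattern held by 25% of all genes tested. The log2-fold changes ran from −2.25 for THBS1 to −4.08 for COMP, against a median of −0.0034 over all genes tested. COMP stood at position 84 of the 14719 genes ordered from the most negative log2-fold change. The median within-line log2 ratio of the other genes that were DE downwards lay between −1.50 and −2.11 in the 5 lines.

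**Figure D1:**
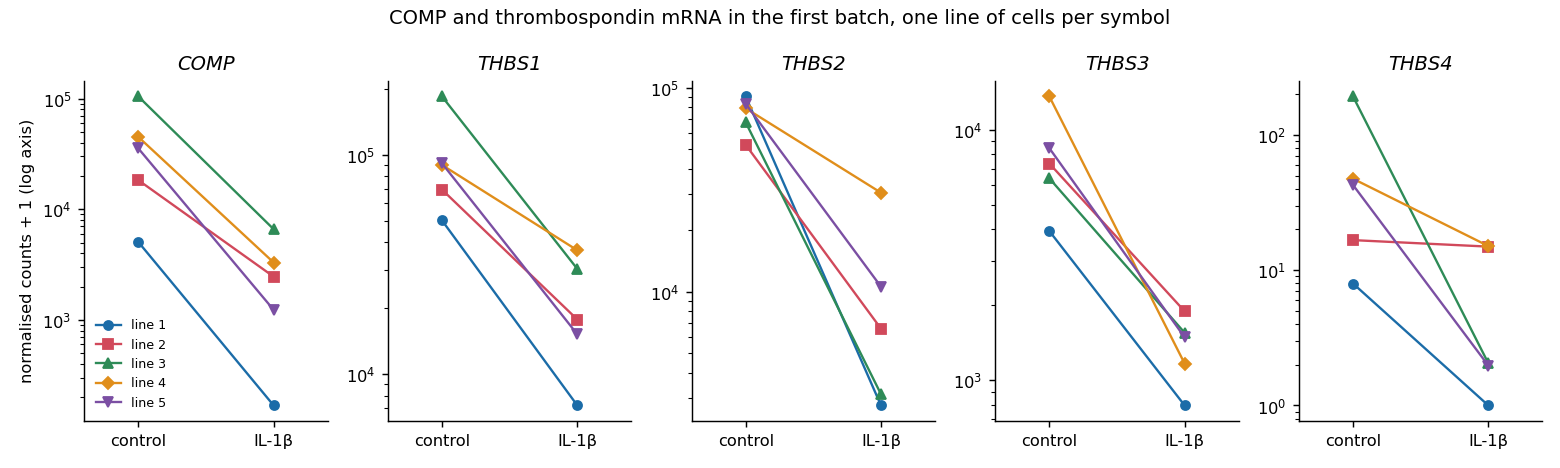
Normalised counts + 1 on a log axis for COMP and the thrombospondins in the first batch, with control at the left and IL-1β at the right of each panel and 1 symbol and connecting line for each of the 5 tenocyte lines. Every connecting line falls, and the IL-1β symbols of THBS1, THBS2 and THBS3 all lie below the control symbols, whereas those of COMP and THBS4 overlap them.

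Of the genes without type 1 repeats, COMP had the largest change. In control gels COMP was at 5057, 18303, 104386, 44977 and 35427 normalised counts in lines 1 to 5. With IL-1β it was at 168, 2459, 6602, 3300.4 and 1232. Line 3 was the highest and line 1 the lowest in both conditions, and the groups overlapped, since the control of line 1 lay below line 3 with IL-1β. The log2-fold change was −4.08 (SE 1.01, 95% confidence interval −6.31 to −1.85, adjusted p = 0.0132, limma). Within lines, IL-1β left between 3.32% of the control level, in line 1, and 13.4%, in line 2. With the tenocyte line as a block, which compares each line with its own control, the SE of COMP was 0.29. The 95% confidence interval was then −4.78 to −3.38 (adjusted p = 2.76e-04, limma). Without the block, COMP was not DE when line 5 was left out (log2-fold change −3.89, adjusted p = 0.0685, limma on 4 lines).

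THBS3, a pentameric thrombospondin of skeletal tissues, was at 3940.0, 7332, 6397, 13578 and 8441 normalised counts in the controls of lines 1 to 5. With IL-1β it was at 792, 1884, 1546, 1164 and 1483. No IL-1β library reached the lowest control, and 10.2% of all genes tested had every IL-1β library below every control. The log2-fold change of THBS3 was −2.47 (SE 0.32, adjusted p = 4.55e-04, limma), with the smallest SE of the 5 genes. Its within-line log2 ratio was most negative in line 4, at −3.54, and lay between −1.96 and −2.51 in the other lines.

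THBS4, a matrix glycoprotein of tendon and muscle, was near the lower limit of the measurement. Its control values were 6.97, 15.7, 191, 46.4 and 41.6 normalised counts in lines 1 to 5, and its IL-1β values were 0, 13.9, 1.05, 14.1 and 0.972. Only 4 control and 2 IL-1β libraries reached 10 normalised counts, so the gene passed the filter on low values mainly through the controls, and the groups overlapped. The log2-fold change of −3.16 (SE 1.01, adjusted p = 0.0396, limma) depends on the pseudocount added before the logarithm and ran from −3.51 to −2.16 over the other settings tried. THBS4 was not DE without line 3 (−2.31, adjusted p = 0.144), without line 4 (−3.53, adjusted p = 0.0597) or without line 5 (−2.84, adjusted p = 0.152, all limma).

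Of the trimeric thrombospondins, THBS1, a regulator of cell adhesion and of TGF-β activation, was at 50211, 69365, 184151, 89809 and 91342 normalised counts in the controls of lines 1 to 5. With IL-1β it was at 7221, 17778, 30211, 36734 and 15222. As for COMP, line 3 was the highest control and line 1 the lowest in both conditions, but here the groups did not overlap. THBS1 had a log2-fold change of −2.25 (SE 0.46, adjusted p = 0.00510, limma), with the smallest within-line change in line 4 (−1.29) and the largest in line 1 (−2.80).

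THBS2, a matricellular protein that affects collagen fibril structure, was at 90525, 52486, 67594, 79226 and 83305 normalised counts in the controls. With IL-1β it was at 2769, 6588, 3144, 30562 and 10583 in the same order of lines. The controls lay close together, the IL-1β libraries were spread widely with line 4 far above the others, and the groups did not overlap. The log2-fold change was −3.36 (SE 0.57, adjusted p = 0.00203, limma), and it was −3.86 without line 4. THBS2 fell the least in line 4 (within-line log2 ratio −1.37) and the most in line 1 (−5.03), so that line 4 combined the smallest changes of THBS1 and THBS2 with the largest change of THBS3.

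The 5 genes differed in how much they varied between untreated lines. COMP varied by 20.6-fold between the highest and the lowest control of the first batch, with an SD of 1.63 on the log2 scale, which exceeded the SD of 99.8% of the 425 genes within 1 log2 unit of its level. In the second batch the COMP controls spanned 392-fold, with an SD of 4.37, again above 99.8% of the 4373 genes at its level. THBS2 was at the other end, with SDs of 0.31 and 0.12, and in the second batch none of the 63 genes at its level had a smaller SD. THBS1 and THBS3 lay between, with SDs of 0.69 and 0.65 in the first batch and 1.47 and 1.16 in the second. They too varied more than most genes at their level. The SD of THBS1 exceeded 94.0% and 93.7% of those genes in the 2 batches, and that of THBS3 95.4% and 95.4%. THBS4 had SDs of 1.73 and 3.05, above those of 92.9% and 95.9% of genes at its level. How much of this is counting error at its low level was not tested. Over all genes tested the median SD was 0.28 between the 5 first-batch lines and 0.37 between the 3 second-batch lines.

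**Figure D2:**
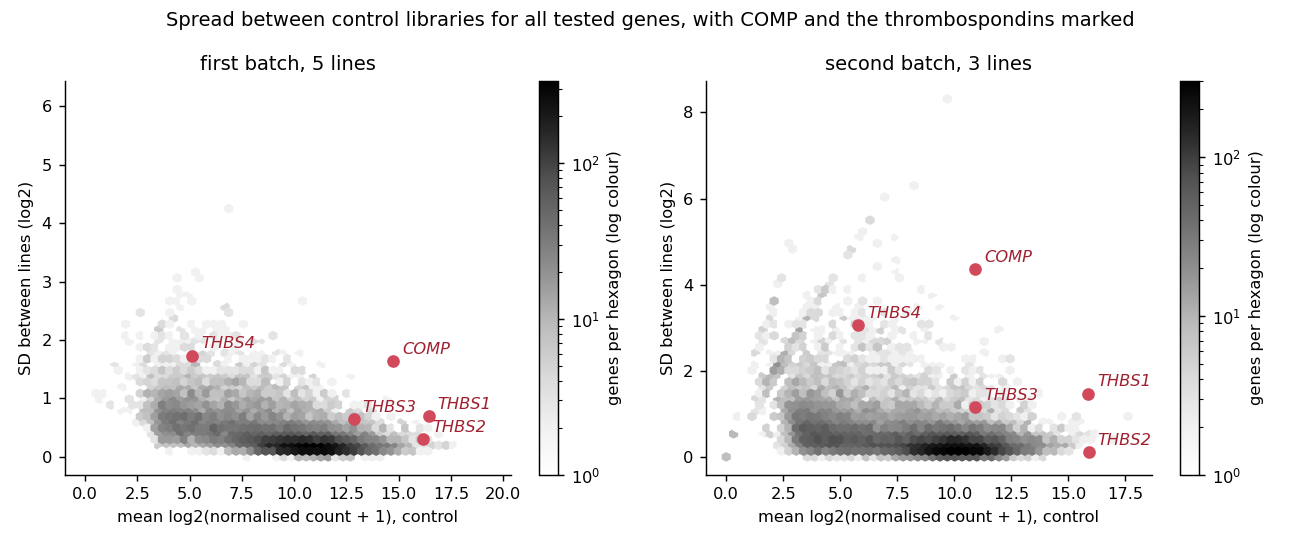
Standard deviation of log2(normalised count + 1) between control libraries against the mean on the same scale, for all genes tested in the first batch (left, 5 lines) and the second (right, 3 lines), with grey hexagons shaded by the number of genes on a log scale and red points for COMP and the thrombospondins. COMP lies far above the bulk of genes at its level in both batches (SD 1.63 and 4.37), and THBS2 lies within or below it (0.31 and 0.12).

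The spread between lines was shared by some of the genes. After removing the mean of each condition, COMP and THBS1 correlated at r = 0.94 over the 10 first-batch libraries and at 0.80 over the 9 second-batch libraries. COMP correlated with THBS4 at 0.73 and 0.83 and with THBS3 at 0.65 and 0.90, and THBS1 correlated with THBS4 at 0.76 and 0.86. COMP and THBS2 did not follow each other in this way, with r = 0.22 and −0.61. Libraries of the same line share a donor, so these coefficients describe far fewer independent cultures than libraries and were not tested.

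The second batch repeated the IL-1β culture in 3 other lines. COMP was at 51392, 1069 and 131 normalised counts in the controls of lines 6, 7 and 8, at 4497, 119 and 5.24 with IL-1β, and at 33101, 96.7 and 7.33 with IL-1β plus IL1Ra. The lines kept this order in each condition, and line 6 lay far above the others, so that the conditions overlapped. IL-1β gave a log2-fold change of −3.69 (SE 3.57, 95% confidence interval −11.87 to 4.49, adjusted p = 0.810, limma). With the tenocyte line as a block, which compares each line with its own control, the SE was 0.64 and COMP was DE (adjusted p = 0.0229, limma). Within lines IL-1β left 8.75%, 11.2% and 4.00% of the control level, the last of which rests on 5.24 normalised counts.

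THBS3 was at 4555, 1725 and 928 normalised counts in the controls of lines 6, 7 and 8. It was at 629.8, 843 and 185 with IL-1β, below every control. With IL1Ra added it was at 2558, 258 and 286, where only line 6 lay within the range of the controls. Its log2-fold change with IL-1β was −2.07 (SE 1.00, adjusted p = 0.485, limma), and it was not DE with the block either (adjusted p = 0.0884).

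THBS4 was at 632, 14.1 and 16.4 normalised counts in the controls of lines 6, 7 and 8, at 123, 1.11 and 13.8 with IL-1β, and at 506, 6.74 and 8.51 with IL-1β plus IL1Ra. As for COMP, line 6 was the highest in every condition, and the other lines stayed near the lower limit of the measurement. The log2-fold change with IL-1β was −1.81 (SE 2.20, adjusted p = 0.857, limma; 0.127 with the block).

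THBS1 was at 175762, 51083 and 23286 normalised counts in the controls of lines 6, 7 and 8 and at 20961, 11531 and 12381 with IL-1β, below every control. With IL1Ra added it was at 49859, 8853 and 17752, with line 6 again the highest. The log2-fold change with IL-1β was −2.04 (SE 0.82, unadjusted p = 0.0361, adjusted p = 0.394, limma), and the adjusted p with the block was 0.0516.

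THBS2 was at 55091, 63967 and 62393 normalised counts in the controls of lines 6, 7 and 8, the narrowest range of the 5 genes on the log2 scale. With IL-1β it was at 2202, 5599 and 17791, and with IL1Ra added at 18264, 9347 and 53350.2. Every control lay above every treated library, and every line was higher with IL1Ra than with IL-1β alone. The log2-fold change with IL-1β was −3.32 (SE 0.81, unadjusted p = 0.00315, adjusted p = 0.158, limma), and THBS2 was DE with the block (SE 0.58, adjusted p = 0.0234).

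**Figure D3:**
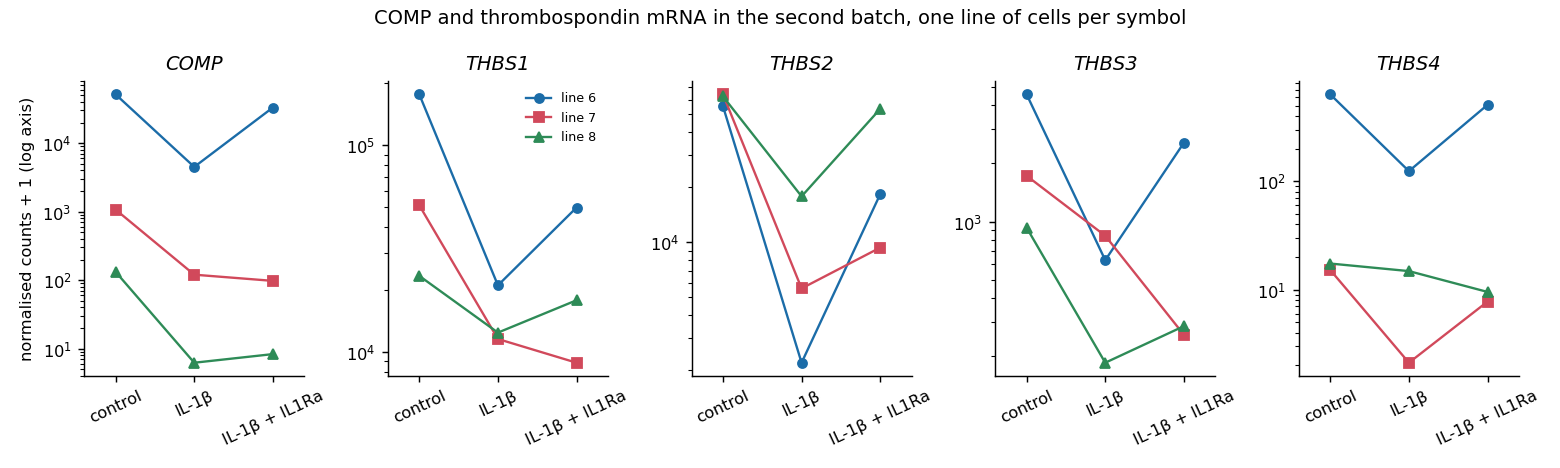
Normalised counts + 1 on a log axis for COMP and the thrombospondins in the second batch under control, IL-1β and IL-1β + IL1Ra, with 1 symbol and connecting line for each of lines 6, 7 and 8. COMP and THBS4 of line 6 lie far above the other lines throughout, the THBS2 controls coincide, and THBS2 is the one gene that rises from IL-1β to IL-1β + IL1Ra in each line.

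Across lines 6 to 8 all 5 genes were lower with IL-1β than in the matched control in 3 of 3 lines, as were 18.9% of the 16705 genes tested. THBS1, THBS2 and THBS3 showed no overlap between the groups, as did 7.61% of all genes in that direction. None of the 5 was DE without the block, where 0.341% of all genes were DE and 11.4% had an unadjusted p below 0.05 by limma. COMP and THBS2 were DE with the block, where 5.18% of all genes were DE and 2.59% were DE downwards. COMP and THBS2 were the genes with the most negative log2-fold changes of the 5, at positions 77 and 122 of 16705, and also at positions 84 and 170 in the first batch. The batches were assumed to be normalised apart and hold different lines, and a difference in effect between them was not tested.

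IL-1β plus IL1Ra was compared with the same controls, so this comparison shares its control libraries with the previous one. All 5 genes were lower than control in 3 of 3 lines, as were 19% of all genes tested. The log2-fold changes were −2.69 (SE 3.57) for COMP, −1.75 (SE 1.00) for THBS3, −0.72 (SE 2.20) for THBS4, −1.58 (SE 0.82) for THBS1 and −1.53 (SE 0.81) for THBS2. None was DE (lowest adjusted p 0.951, limma), where 0.012% of all genes were DE and 5.67% had an unadjusted p below 0.05. With the block none was DE either, with adjusted p from 0.159 for COMP to 0.686 for THBS4, where 0.251% of all genes were DE. THBS2 was the one gene of the 5 with no overlap between the groups, a pattern in that direction held by 5.96% of all genes.

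**Figure D4:**
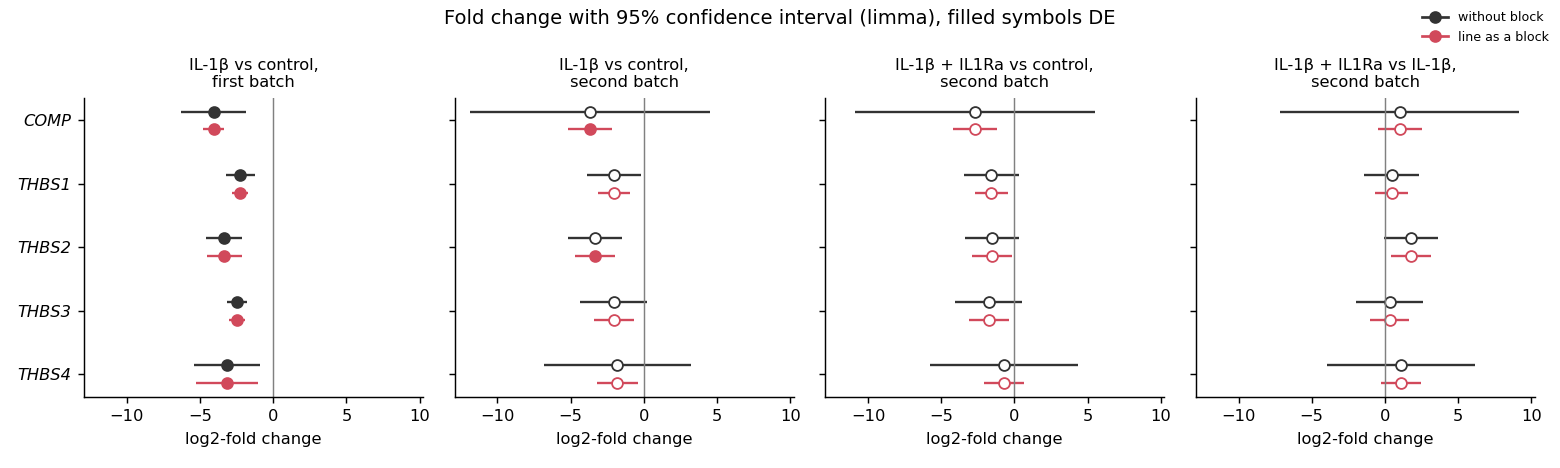
Log2-fold change with its 95% confidence interval from limma for each gene in the 4 comparisons, from the fit without a block (dark) and from that blocked by tenocyte line (red), with filled symbols for DE genes. In the first batch all symbols are filled, whereas in the second only COMP and THBS2 are filled, with the block and for IL-1β against control, and the interval of COMP without the block runs from −11.87 to 4.49.

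Directly against IL-1β alone, the addition of IL1Ra gave log2-fold changes of 1.00 for COMP (95% confidence interval −7.18 to 9.18), 0.32 for THBS3 (−1.98 to 2.61), 1.09 for THBS4 (−3.95 to 6.13), 0.46 for THBS1 (−1.41 to 2.34) and 1.79 for THBS2 (−0.06 to 3.65). No gene of the whole table (0%) was DE by limma in this comparison, 2.78% had an unadjusted p below 0.05, and 1 gene (0.00599%) was DE with the block. THBS2 came closest of the 5, with an unadjusted p of 0.0565, or 0.0170 with the block (adjusted p = 0.456, limma), and was higher in 3 of 3 lines, as were 15.6% of all genes. The other 4 genes were higher in 2 of 3 lines. The value of THBS3 turned to −0.54 when line 6 was left out. For each of the 5 genes this interval includes 0 and also a rise as large as the difference between control and IL-1β. With the block the intervals were narrower, at −0.50 to 2.50 for COMP, −1.05 to 1.68 for THBS3, −0.30 to 2.48 for THBS4, −0.65 to 1.58 for THBS1 and 0.42 to 3.16 for THBS2. These lie above 0 for THBS2 alone, before adjustment over all genes. In this blocked comparison 8.38% of all genes had an unadjusted p below 0.05 by limma, in either direction. A return to control is read from the blocked comparison of IL-1β plus IL1Ra with control. There the intervals lay below 0 for COMP, THBS1, THBS2 and THBS3 and included 0 for THBS4 (−2.11 to 0.67). They are also before adjustment, and 13.4% of all genes had an unadjusted p below 0.05 there by limma, in either direction. None of the 5 genes was DE in that comparison.

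The values with IL1Ra varied from line to line. In line 6 every one of the 5 genes was higher with IL1Ra than with IL-1β alone, with log2 ratios of 2.88 for COMP, 2.02 for THBS3, 2.03 for THBS4, 1.25 for THBS1 and 3.05 for THBS2. COMP in this line stood at 64.4% of its control, THBS4 at 80.2% and THBS3 at 56.2%, whereas THBS2 stood at 33.2% and THBS1 at 28.4%. In line 7 COMP (−0.30), THBS1 (−0.38) and THBS3 (−1.70) were lower with IL1Ra than with IL-1β alone, and COMP stood at 9.04% of control. In line 8 THBS2 stood at 85.5% of control and THBS1 at 76.2%, whereas COMP stood at 5.60%. The gene nearest to its control level was thus THBS4 in lines 6 and 7 and THBS2 in line 8. In line 7 THBS4 was at 6.74 normalised counts against 14.1 in the control, so its place there rests on few reads. THBS4 in line 8 was lower with IL1Ra than with IL-1β alone (−0.64), at 8.51 and 13.8 normalised counts. COMP in line 8 with IL1Ra was at 7.33. All of these lie near the lower limit of the measurement.

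Over the 1117 other genes that were DE downwards in the first batch and were tested in the second, the median log2 ratio of IL-1β plus IL1Ra to IL-1β was 1.09 in line 6, 0.08 in line 7 and 0.43 in line 8. With 1 culture per line and condition, a difference between lines cannot be told apart from a difference between single cultures.

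**Figure D5:**
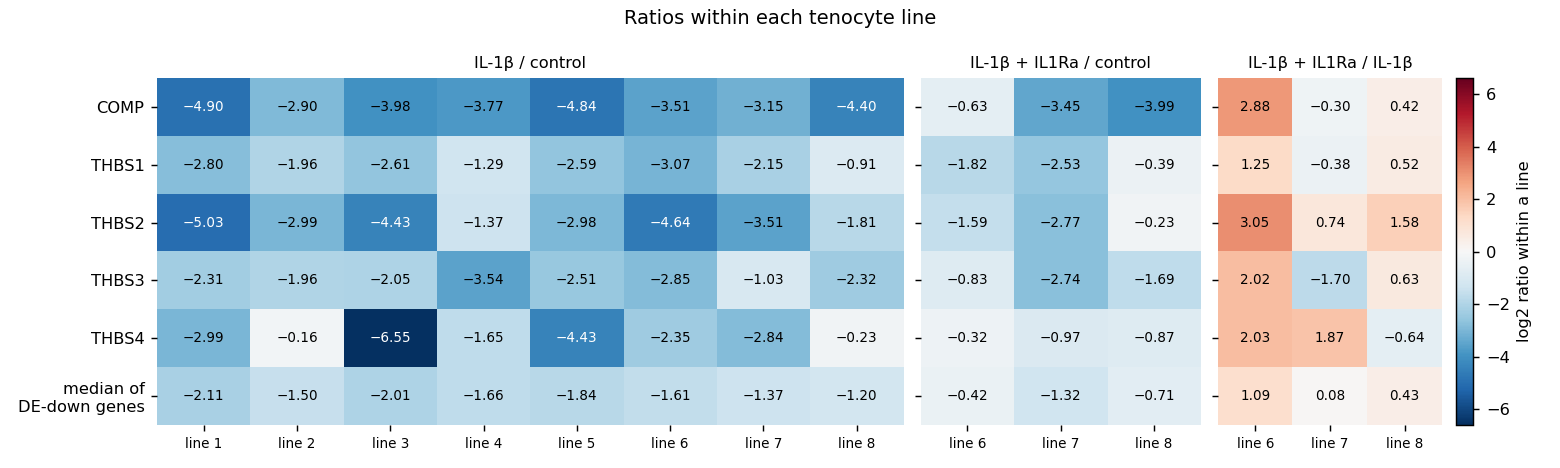
Log2 ratios of normalised count + 1 within each tenocyte line, for IL-1β over control (8 lines), IL-1β + IL1Ra over control and IL-1β + IL1Ra over IL-1β (3 lines each), with blue for lower and red for higher; the bottom row is the median of the other genes that were DE downwards in the first batch. All IL-1β over control ratios are negative, and in the rightmost panel line 6 is positive for every gene while line 7 is negative for COMP, THBS1 and THBS3.

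The known partners of these proteins were counted next. Of 13 cell surface receptors and co-receptors of thrombospondins, 12 were tested, and in the first batch 1 was upregulated and none was downregulated, where 4.91% of all genes were DE upwards, and the median log2-fold change was 0.10. The upregulated gene was SDC4, a heparan sulfate proteoglycan of focal adhesions, with a mean of 5499 normalised counts in the controls and 21628 with IL-1β (log2-fold change 2.00, SE 0.16, adjusted p = 3.31e-05, limma). SDC4 was also DE in the second batch (2.27, SE 0.29, adjusted p = 0.0275, limma), where 0.269% of all genes were DE upwards. It was not DE when control and IL-1β libraries were fitted alone. Nor was it DE when line 7 or line 8 was left out, where 0 genes of the whole table were DE. When line 6 was left out, 3 receptors of the list were DE upwards, where 364 genes of the whole table were DE in either direction. CD36, the receptor of the type 1 repeats, was at 0 in every library of the first-batch controls and below 10 normalised counts throughout. CD47, which binds the carboxy-terminal region, had log2-fold changes of 0.19 (SE 0.21) in the first batch and −0.13 (SE 0.46) in the second and was not DE in either.

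Of 13 matrix partners of COMP, 10 were tested in the first batch, of which 7 were downregulated and 1 was upregulated, beside 7.9% and 4.91% of all genes, with a median log2-fold change of −1.42. The largest changes were those of ACAN, the main proteoglycan of cartilage (−7.55, SE 1.06, adjusted p = 7.29e-04), MATN2, a matrilin (−4.94, SE 1.17, adjusted p = 0.0105), and COL12A1, a fibril-associated collagen (−2.36, SE 0.58, adjusted p = 0.0129, all limma). The upregulated gene was MATN3, at means of 7.23 and 19.5 normalised counts, and it was not DE with the block (adjusted p = 0.0579, limma). No partner was DE upwards with a pseudocount of 0.5, without a filter, or with a filter on a mean of 100 normalised counts. The same held after scaling to equal totals, and without line 1, 2, 3 or 5. Without line 5 the count of downregulated partners was 3. Among lines 6 to 8 none was DE without the block, and ACAN was DE with it (−6.20, adjusted p = 0.0224, limma), beside 2.59% of all genes DE downwards.

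All 7 of the listed proteases known to cut COMP or thrombospondins were tested in the first batch, and 2 were upregulated and 1 downregulated, beside 4.91% and 7.9% of all genes. The collagenase MMP13 rose from a mean of 18732 to 403374 normalised counts (log2-fold change 4.36, SE 0.54, adjusted p = 3.53e-04, limma), with the lowest IL-1β library at 114282 and the highest control at 37599. The aggrecanase ADAMTS4 rose by 2.49 on the log2 scale (SE 0.35, adjusted p = 7.67e-04, limma). ADAMTS1, a metalloproteinase that can cut THBS1 and THBS2, fell from a mean of 5667 to 2006 normalised counts (SE of the log2-fold change 0.37, adjusted p = 0.0308, limma), but was not DE without line 1, 2, 4 or 5. With lines 6 to 8, MMP13 (4.84, adjusted p = 0.0361) and ADAMTS4 (2.56, adjusted p = 0.0273, both limma) were DE with the block and not without it. With the block 2.59% of all genes were DE upwards. When line 6 was left out, 1 protease of the list was DE upwards without the block.

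Of 11 other proteins with thrombospondin type 1 repeats, 9 were tested in the first batch and 3 were downregulated, beside 7.9% of all genes, with a median log2-fold change of −1.46. These were the matricellular CCN family members CTGF (−1.85, SE 0.31, adjusted p = 0.00199) and CYR61 (−1.40, SE 0.36, adjusted p = 0.0156) and the spondin SPON2 (−1.34, SE 0.13, adjusted p = 1.10e-04, all limma). The count was 5 with the block, where 10.2% of all genes were DE downwards. For lines 6 to 8 CYR61 was DE with the block (−1.82, adjusted p = 0.0129, limma), as the one gene of this list, beside 2.59% of all genes DE downwards.

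Markers of the cells named in the labels and of other cells were read beside these genes. Of 6 tenocyte markers tested, 4 were downregulated in the first batch, beside 7.9% of all genes, among them SCX (−4.25, SE 0.71), MKX (−3.95, SE 0.77) and COL1A1 (−1.83, SE 0.38). The summed level of the 7 tenocyte markers in the tables was 995015 to 1755582 normalised counts in the controls and 424835 to 802122 with IL-1β, most of it COL1A1 and COL1A2. DCN, a small proteoglycan of the same list, had means of 61194 and 101598 normalised counts (log2-fold change 0.73, SE 0.26, adjusted p = 0.0626, limma, or 0.00725 with the block). In the second batch none of the 6 was DE without the block, the summed levels of control (237519 to 804643) and IL-1β (304264 to 458693) overlapped, and DCN had means of 42574 and 130467. Of 3 chondrocyte markers tested in the first batch, 2 were downregulated and 1 was upregulated, beside 7.9% and 4.91% of all genes. Downregulated were ACAN and SOX9, a cartilage and tendon progenitor transcription factor (−2.97, SE 0.45), and MATN3 was upregulated as given above. In the second batch none was DE without the block and 2 were downregulated with it, beside 2.59% of all genes. The summed level of the 8 chondrocyte markers was 7419 to 42966 in the first-batch controls and 101 to 1155 with IL-1β. The defining cartilage genes COL2A1, COL9A1 and MATN1 were below 10 normalised counts in every library.

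Of 5 pericyte and smooth muscle markers, 4 were downregulated, beside 7.9% of all genes, with DES at −4.10 (SE 0.47), NOTCH3 at −1.87 (SE 0.38) and RGS5 at −1.68 (SE 0.34). Their summed level was 26194 to 87972 normalised counts in the controls and 11717 to 24888 with IL-1β. Of the leukocyte, endothelial and platelet markers tested in the first batch (1, 2 and 1 genes) none was DE by limma. With the block the endothelial adhesion molecule PECAM1 was DE upwards, at means of 10.6 and 32.6 normalised counts (log2-fold change 1.68, adjusted p = 0.0455, limma), beside 6% of all genes. The summed endothelial level was at most 91.0 in any first-batch library. The summed leukocyte level was 167 to 2233 in the first-batch controls and 202 to 3127 with IL-1β. It was carried in its highest libraries by CD14, a monocyte receptor that ranged from 0 to 1947 in the controls and from 0 to 2811 with IL-1β and was removed by the filter, while PTPRC, the common leukocyte antigen, reached at most 3.64. The part of any of these cell types in the fall of COMP and the thrombospondins was not tested.

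Last, the genes whose levels most resembled those of each gene across the 10 first-batch libraries were listed, out of 14478 genes tested in both batches. For COMP these were ELP4 (r = 0.99, and 0.73 over the 9 second-batch libraries), MYOZ3 (0.99 and 0.88) and PRX (0.99 and 0.89). For THBS1 they were TSPAN18 (0.99 and 0.87), MYOZ3 (0.99 and 0.86) and the collagen-binding integrin subunit ITGA11 (0.99 and 0.91). THBS2 was closest to DNM1 (0.99 and 0.73), ITGA9 (0.98 and 0.33) and TNS1 (0.98 and 0.49), THBS3 to LOXL4 (0.98 and 0.79), CRIP1 (0.97 and 0.96) and MTHFD1L (0.97 and 0.94), and THBS4 to STAP2 (0.96 and 0.69), BEX4 (0.96 and 0.84) and CSGALNACT1 (0.95 and 0.85). MYOZ3 was thus shared by COMP and THBS1, and the likeness of THBS2 to ITGA9 and TNS1 was much weaker in the second batch. These coefficients span both conditions and the lines, and they are descriptions without a test.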

How the data were processed

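RNA sequencing was performed on 19 cultures of equine tenocytes, grouped by batch and treatment from the sample labels. The signal values are normalised counts deposited by the authors: 150 bp paired reads were assigned to horse RefSeq transcripts (EquCab3.0) with Salmon and summed to genes with tximport in R 4.2.1. They were assumed to have been divided by DESeq2 1.36 normalisation factors within each batch.

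The values were not whole reads: only 56.7 to 67.5% (first batch) and 47.4 to 67.7% (second) of low values lay within 0.05 of a whole multiple of 1 read, worth 0.862 to 1.21 normalised counts. No count model was therefore fitted. Genes with at least 10 normalised counts in 5 (first batch) or 3 (second) libraries were fitted as log2(normalised count + 1) with limma 3.58.1 (lmFit, eBayes with trend) in R 4.3.3, with Benjamini-Hochberg adjustment over 14719 and 16705 genes. The second-batch fit used all 9 libraries. The scripts were tested on simulated data. Precision is limited by the low level of THBS4 and by the number of lines.

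A line is a single donor's cells, so line numbers pair the libraries: deviations from condition means correlated at 0.35 to 0.58 within lines (5 pairs) and 0.54 to 0.79 (9 pairs), and at −0.36 to 0.29 and −0.62 to 0.25 between lines. The block was an alternative, as were other pseudocounts, filters and scalings, no trend, 2 conditions alone, and leaving out each line. Whether cultures of a line were repeated is not stated. No library pairs were identical.

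The 5 genes and all lists were chosen with earlier results of these data known. Named were the 5 genes, up to 3 DE genes per list and direction with the largest first-batch change, markers at or near 0, the 3 genes most correlated with each of the 5, and CD47, SDC4, ACAN, MMP13, ADAMTS4 and CYR61 in the second batch, and DCN, CD14, PTPRC and PECAM1, after their values were seen. COL3A1 and PF4, of the tenocyte and platelet lists, were not matched by name. No sequences or coordinates are given, and the strand setting of Salmon is not given in the sources used here, so antisense overlaps cannot be told apart.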

Additional observations from a re-analysis of the deposited data

Results flagged for a closer look

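In the first batch, 15 sets of 5 values were tested for a value far from the others, and 2 held one. The sets were the controls, the IL-1β libraries and the within-line log2 ratios of the 5 genes. Controls and IL-1β libraries were tested as normalised counts, without the logarithm. A chance rate of about 1 in 20 holds for independent sets of normally distributed values. These sets share libraries, and normalised counts need not be normally distributed, so 2 of 15 cannot be set against that rate. THBS2 in the first batch with IL-1β had its highest library in line 4, at 30562 normalised counts, and the gap to the next line took a share of 0.719 of the whole range. THBS4 in the first-batch controls had its highest library in line 3, at 191 normalised counts, with a share of 0.786. Without line 4 the log2-fold change of THBS2 was −3.86, and without line 3 that of THBS4 was −2.31, where it was no longer DE by limma (adjusted p = 0.144).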

How the results depend on the processing

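In the first batch all 5 genes were DE in each setting that kept them and all 5 lines, except that a filter on a mean of 100 normalised counts removed THBS4. Leaving out 1 line at a time, without the block, gave 3 to 5 DE genes, with 3 without line 5 (COMP and THBS4 lost). In the second batch none of the 5 was DE for IL-1β against control, and 2 were with the line as a block; no other setting moved this count, and the block changed no other call of the 5 genes. For IL-1β + IL1Ra against IL-1β, THBS3 ranged from −0.54 (reversed, without line 6) to 1.32 as each line was left out. The counts over all genes depended strongly on the settings in the second batch. For IL-1β against control 57 genes were DE, 865 with the block, 364 without line 6, 34 without trend or with those 2 conditions alone, and 0 without line 7 or 8. For IL-1β + IL1Ra against control 2 were DE, 42 with the block, 63 without line 6, and 0 to 5 otherwise, and against IL-1β 0 were DE, 1 with the block and 10 without line 6. Scaling to equal totals shifted the median log2-fold change of all genes to −0.19 for IL-1β against control in the second batch and to 0.11 for IL-1β + IL1Ra against IL-1β, and the directions of the 5 genes did not change. The causes were not tested. Low counts limit THBS4, and COMP in line 8 with IL-1β, with or without IL1Ra.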
